A study of Homo sapiens with 9 samples.

Results

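The 45 genes described here encode glycoproteins and small proteoglycans of the extracellular matrix, together with a crosslinking enzyme of the matrix, TGM2. They were chosen by symbol from a list drawn up with the values of the siEF libraries already known, and all 45 were found among the 60603 genes of the count table. Of these, 40 were among the 16093 genes with enough counts to be tested, and THBS2, COMP, FBLN2, ACAN and HAPLN1 were not.

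Matrix glycoproteins and proteoglycans are secreted proteins that assemble around the cell with collagens. Fibronectin and the tenascins carry or mask binding sites for integrins, fibrillins and elastin build elastic fibres, small leucine-rich proteoglycans sit on collagen fibrils, and nidogens and perlecan join the networks of basement membranes. Such genes are widely used as markers of mesenchymal cells.

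RNA was sequenced from TC32, a cell line established from an Ewing sarcoma, the tumour of bone and soft tissue driven by a fusion of EWSR1 and FLI1. Cells of the siEF group (3 libraries) were plated on an siRNA that spans the fusion breakpoint, those of the siNEG group (3 libraries) on a nonspecific siRNA, and those of the media group (3 libraries) carry the label media, although the same siRNA protocol text stands beside all 9 samples. All were labelled with the same cell line, genotype WT, batch 1 and 30 h, so the results hold for 1 line at 1 time. The labels name biological replicates without saying how the cultures were kept apart, so P values measure the spread between these libraries.

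Libraries held between 20727706 and 33134581 expected counts, with the lowest total in siEF replicate 2. FLI1, which gives the 3′ end of the fusion transcript, had 37.8 ± 2.0 CPM (counts scaled to library size, mean ± SD, n = 3) in siEF, 48.4 ± 0.315 in siNEG and 57.9 ± 1.65 in media. NR0B1, a target that the fusion is known to activate, had 17.7 ± 2.35 CPM in siEF against 137 ± 4.98 in siNEG and 177 ± 12.7 in media, so the labels of siEF and of the controls were told apart by it. CPM values were scaled with edgeR's TMM factors throughout.

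Most of the matrix genes were higher in siEF. In the comparison of siEF with siNEG, which asks what differs when the fusion is silenced, 31 of the 40 tested were called higher, 1 was called lower (ELN, elastin) and 8 were not called. A call needed a log2 fold change above 1 or below -1, together with a Benjamini-Hochberg adjusted P under 0.01 in edgeR's quasi-likelihood test, and by the same rule 17.1% of all genes tested were higher and 11.7% lower. The libraries did not overlap for any member tested, with every siEF library above every siNEG library for 38 and below for ELN and SPARC, where these shares were 39.8% and 37.1% of all genes. The median log2 fold change was 2.52 over the members tested and 0.05 over all genes tested. Since the genes were chosen with this contrast in view, these counts describe the list, nothing is read from them beyond that, and no P value is given for a member in a contrast with siEF.

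Against media the counts were 31 higher and 1 lower, with a median of 2.48, beside 17.4% and 12.5% of all genes. Every siEF library lay above every media library for 38 members and below for 2, beside 39.0% and 36.8% of all genes. Both comparisons use the same siEF libraries. POSTN, THBS4, LUM, OGN, ASPN and PODN passed the filter on low counts only through the siEF libraries and had to differ to be tested. Of the 34 that would have passed on the control libraries alone, 25 were called higher than siNEG and 1 lower, with a median log2 fold change of 2.07. Of all genes that pass in the same way 13.7% were higher and 12.5% lower, with a median of -0.02.

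**Figure D1:**
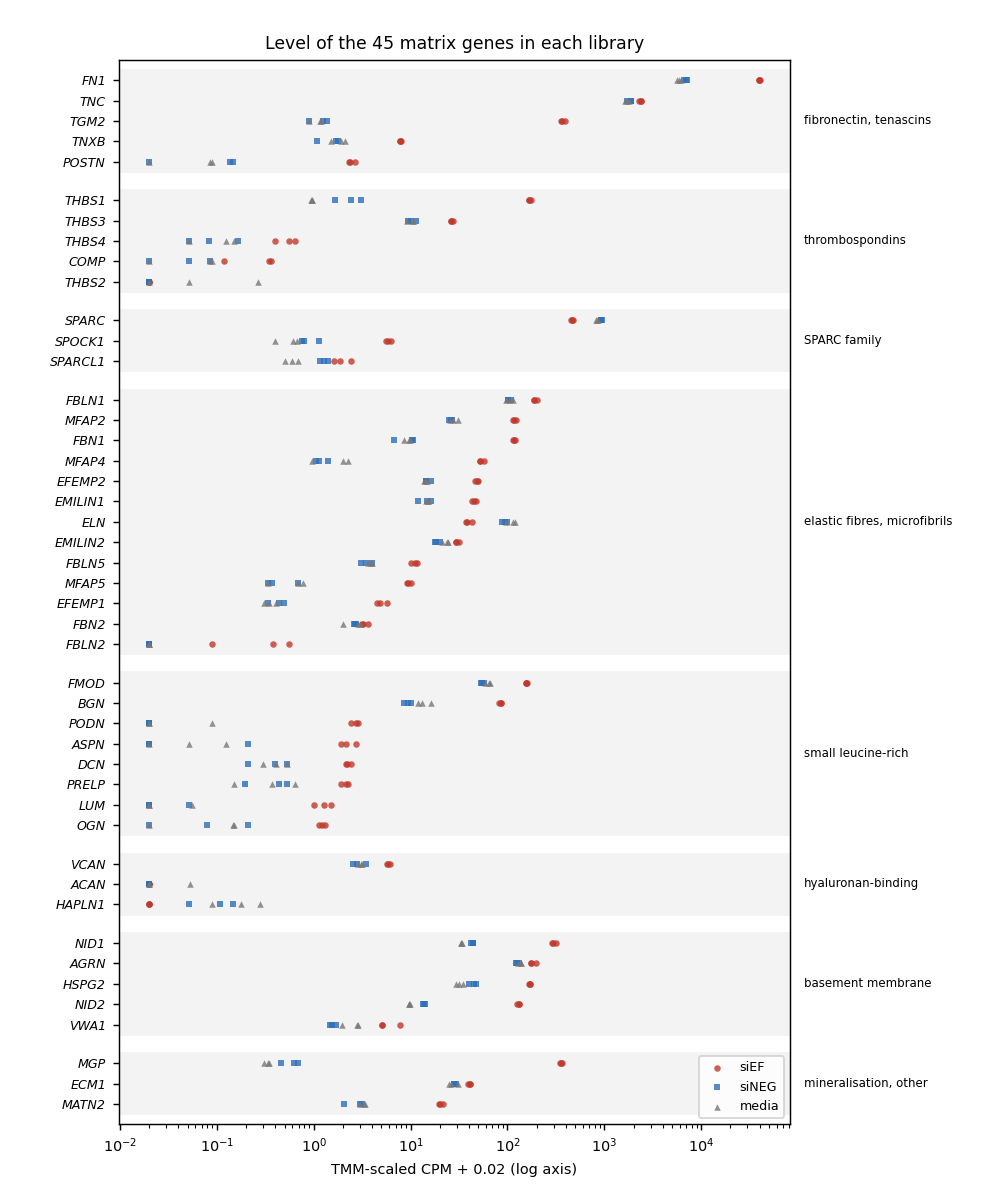
Each point is the TMM-scaled CPM of 1 gene in 1 library, plus 0.02, on a log axis, with the 45 matrix genes in rows by role and siEF, siNEG and media as red circles, blue squares and grey triangles. In most rows the 3 siEF points lie to the right of the 6 control points, MGP and TGM2 by the widest gap among genes with counts in every library, while ELN and SPARC lie to the left and HAPLN1 has no siEF count.

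Fibronectin carried most of the matrix message. FN1 (ENSG00000115414.19, chr2:215360440-215436073, minus strand, GRCh38), the fibril-forming ligand of integrins, had 1103812, 808662 and 1175262 counts in siEF replicates 1 to 3. It had 208320, 239912 and 219312 in siNEG and 180005, 196299 and 162725 in media. All 3 siEF libraries therefore held several times the count of any control library, although siEF replicate 2 was the shallowest of the 9.

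Scaled, FN1 stood at 39920 ± 340 CPM (SD, n = 3) in siEF, 6894 ± 272 in siNEG and 5930 ± 276 in media, a log2 fold change of 2.53 (SE 0.042) against siNEG and 2.75 (SE 0.043) against media. FN1 alone took 3.91% ± 0.00537 of all counts in siEF, 0.704% ± 0.0337 in siNEG and 0.593% ± 0.0309 in media (SD, n = 3). The 45 genes together took 4.45% in siEF, 1.05% in siNEG and 0.914% in media, so FN1 made up 87.8%, 67.0% and 64.8% of the matrix gene counts in the 3 groups. Without FN1, TNC and SPARC the other 42 genes took 0.267% ± 0.00282 in siEF, 0.0650% ± 0.00255 in siNEG and 0.0652% ± 0.00412 in media. A share is relative to all other transcripts, and in bulk RNA fewer cells of a type and less RNA per cell cannot be told apart.

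**Figure D2:**
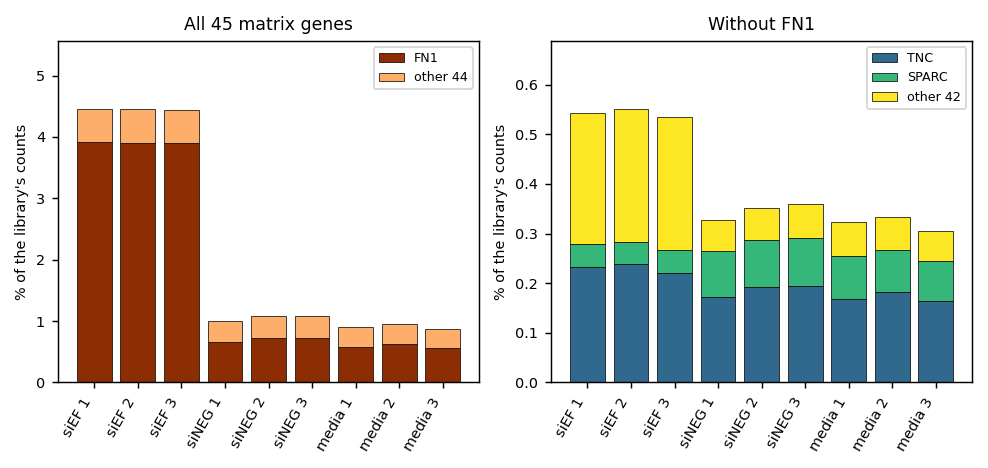
Bars give the percentage of each library's counts that fell on the matrix genes, for all 45 with FN1 in dark brown (left) and for the 44 without FN1 split into TNC, SPARC and the other 42 (right). The siEF bars reach 4.44% to 4.45% against 0.873% to 1.08% in the 6 control libraries, and on the right the yellow part grows in siEF while the green SPARC part shrinks.

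The stretch just upstream of the start site was read for 5 genes, picked from those with a sequence at hand, which MGP, TGM2 and ELN lacked. FN1 is the most abundant, and TNC is an abundant gene that was not called. POSTN and THBS1 were called higher, and SPARC was lower in siEF without being called. The sequences are the 250 bases before the start that RefSeq gives on GRCh38.p14, 5′ to 3′ on the gene's strand: FN1 at chr2:215436069-215436318, POSTN at chr13:37598769-37599018, SPARC at chr5:151686916-151687165 and TNC at chr9:115118158-115118407, all on the minus strand, and THBS1 at chr15:39580829-39581078 on the plus strand. For the genes on the minus strand this start lies inside the gene coordinates printed in this text, so the windows reach into them. Capitals mark TGACGTCA (the cyclic AMP response element) in FN1, TGANTCA (the letters of an AP-1 site) and TATAAA in POSTN, GGAATG (the letters of a TEAD site) in THBS1 and SPARC, and GGAAGGAA in TNC, where a match on the other strand appears as its reverse complement.
FN1: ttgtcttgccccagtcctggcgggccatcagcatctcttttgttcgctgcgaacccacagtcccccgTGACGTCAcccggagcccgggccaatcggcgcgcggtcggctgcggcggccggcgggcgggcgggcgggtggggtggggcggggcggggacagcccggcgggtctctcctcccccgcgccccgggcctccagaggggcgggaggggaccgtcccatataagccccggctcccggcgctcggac
TNC: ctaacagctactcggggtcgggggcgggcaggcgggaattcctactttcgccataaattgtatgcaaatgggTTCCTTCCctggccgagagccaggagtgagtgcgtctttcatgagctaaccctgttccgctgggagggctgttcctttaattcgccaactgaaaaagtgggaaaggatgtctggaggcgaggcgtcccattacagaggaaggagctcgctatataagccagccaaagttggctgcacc
POSTN: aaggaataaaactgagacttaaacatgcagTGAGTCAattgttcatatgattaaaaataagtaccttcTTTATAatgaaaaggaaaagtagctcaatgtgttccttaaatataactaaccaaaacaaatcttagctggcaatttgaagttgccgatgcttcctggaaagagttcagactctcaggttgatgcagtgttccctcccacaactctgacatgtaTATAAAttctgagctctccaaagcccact
THBS1: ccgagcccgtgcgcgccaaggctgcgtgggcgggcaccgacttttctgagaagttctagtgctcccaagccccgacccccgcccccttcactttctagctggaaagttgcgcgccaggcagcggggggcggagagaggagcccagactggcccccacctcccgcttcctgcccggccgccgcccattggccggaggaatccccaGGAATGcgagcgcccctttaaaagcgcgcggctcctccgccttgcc
SPARC: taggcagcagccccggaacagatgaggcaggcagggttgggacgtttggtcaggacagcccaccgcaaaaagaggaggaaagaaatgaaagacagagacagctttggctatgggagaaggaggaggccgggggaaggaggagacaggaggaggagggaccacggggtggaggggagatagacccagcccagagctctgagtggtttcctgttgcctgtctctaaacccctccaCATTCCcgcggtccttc

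Such upstream sequences were at hand for 33 of the 45 genes. Those of TGM2, SPOCK1, EFEMP1, ELN, EMILIN1, MFAP4, MFAP5, LUM, DCN, AGRN, MGP and MATN2 were not used here. Both strands were searched for 6 motifs, and the shares are of all 35116 upstream sequences of the same table. For each member only the sequence with the lowest genomic position was kept, while the 35116 were not reduced in this way. GGAA, the core of the sites that FLI1 and other ETS factors recognise, was present in 30 of the 33 members (90.9%) and in 92.7% of all sequences. GGAAGGAA, which includes GGAA, was found in FBN2 and TNC (3.06% of all), the latter at bases 178 to 171 before the start. TGANTCA was found in ECM1, EMILIN2 and POSTN (6.57% of all), in POSTN at bases 220 to 214. TGACGTCA occurred in FN1 alone among the members (1.65% of all), at bases 183 to 176. GGAATG, which also includes GGAA, occurred in 8 of the 33 (COMP, EMILIN2, FBN1, PRELP, SPARC, THBS1, THBS2 and TNXB) and in 11.9% of all, at bases 46 to 41 in THBS1 and 17 to 12 in SPARC. TATAAA occurred in 7 (ECM1, FBLN5, FMOD, OGN, POSTN, SPARCL1 and THBS2) and in 10.7% of all. GGAATG thus stood before a gene that was higher and one that was lower in siEF. These are matches of letters in a short window and do not show a bound site.

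The partners of fibronectin differed widely among themselves. TGM2 (chr20:38127385-38166578, minus strand), transglutaminase 2, which crosslinks matrix proteins and binds fibronectin, had 368, 357 and 394 CPM in the siEF libraries. It had 1.23, 0.884 and 1.35 CPM in siNEG and 1.14, 1.17 and 0.873 in media, so the control groups overlapped and siEF stood far above both. The fitted difference from siNEG was 324-fold (log2 fold change 8.34, SE 0.092). Part of its exons, 396 bases, overlaps RPRD1B on the opposite strand, which had 18200 counts in the 9 libraries together, where TGM2 had 29176.

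TNC (chr9:115019575-115118207), tenascin-C, an antiadhesive partner of fibronectin, was already abundant in the controls. Its levels were 2349 ± 76.0 CPM in siEF, 1829 ± 109 in siNEG and 1720 ± 84.1 in media (SD, n = 3), and its log2 fold change against siNEG was 0.36 (SE 0.051), short of a call. POSTN (chr13:37562583-37598844), periostin, which links tenascin-C to collagen, had 74, 47 and 68 counts in siEF, 0, 4 and 4 in siNEG and 2, 0 and 2 in media. The siEF counts were all at least 47 and the control counts at most 4, and the log2 fold change against siNEG was 4.81 (SE 0.542). TNXB, tenascin-X, was called higher with 7.79 ± 0.0846 CPM in siEF and 1.07, 1.77 and 1.67 CPM in the siNEG libraries (log2 fold change 2.37). Its value is uncertain because TNXA is a near-identical partial copy that can share reads. TNXB also shares 71 exonic bases with ATF6B on the same strand, which had 14587 counts in the 9 libraries together, where TNXB had 912.

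Thrombospondins, calcium-binding matrix glycoproteins, ranged from THBS1 at high level to THBS2 with almost no count. THBS1 (chr15:39581079-39599466), thrombospondin-1, which binds CD36 and CD47 and activates latent TGF-beta, had 169, 167 and 174 CPM in siEF. It had 2.40, 1.65 and 3.08 CPM in siNEG and 0.914, 0.952 and 0.943 in media. The 3 groups were fully separated, siEF above siNEG and siNEG above media, with log2 fold changes of siEF of 6.17 (SE 0.110) against siNEG and 7.50 (SE 0.126) against media. Its antisense neighbour FSIP1, which shares 448 exonic bases with it, had 277 counts in the 9 libraries together, where THBS1 had 13453.

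THBS3 was called higher at 26.3 ± 0.664 CPM in siEF and 10.3 ± 1.04 in siNEG (log2 fold change 1.36). It shares exonic bases with MTX1 on the other strand, which had 8930 counts to its own 3933. THBS4, known from tendon and muscle, was called higher at a low level, 0.510 ± 0.121 CPM against 0.0809 ± 0.0596 (log2 fold change 2.56, SE 0.603). This call was lost without siNEG replicate 3, and the call against media without siEF replicate 1 or media replicate 2. COMP, the cartilage oligomeric matrix protein, had 9, 2 and 10 counts in siEF and 1, 0 and 2 in siNEG, and the ratio of its scaled counts was 8.77 with an exact 95% interval of 2.62 to 45.9 that covers counting error only. THBS2 had no count in any siEF or siNEG library and 0, 1 and 7 in media, so no fold is given.

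SPARC was an exception among the abundant genes. SPARC (chr5:151661096-151686975), osteonectin, a collagen-binding glycoprotein of bone, had 469, 456 and 480 CPM in siEF, 925, 920 and 936 in siNEG and 868, 844 and 815 in media. The siEF libraries held about the same level as one another, well under all 6 controls, and the log2 fold change was -0.99 (SE 0.042) against siNEG and -0.85 (SE 0.042) against media. The first value lies just inside the limit of 1, so SPARC was not called here, but it was called lower than siNEG in DESeq2.

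Of the other family members 1 was called against siNEG, where 17.1% of all genes were called higher and 11.7% lower. SPOCK1, testican-1, a heparan sulfate proteoglycan, was called higher (5.92 ± 0.384 CPM in siEF against 0.871 ± 0.204 in siNEG, log2 fold change 2.76). SPARCL1, hevin, stood at 1.95 ± 0.394 CPM in siEF, 1.26 ± 0.121 in siNEG and 0.575 ± 0.0869 in media. Its log2 fold change was 0.63 (SE 0.258) against siNEG, not called, and 1.77 (SE 0.283) against media, which was called, so for this gene the choice of control decided the call.

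Among the 13 genes of elastic fibres and microfibrils, 12 were tested, 8 were called higher than siNEG, ELN was called lower, and FBN2, FBLN1 and EMILIN2 were not called, where 17.1% of all genes were higher and 11.7% lower. ELN (chr7:74027789-74069907), elastin, the rubber-like core of the fibre, had 38.1, 42.9 and 37.3 CPM in siEF. It had 88.6, 94.0 and 99.4 in siNEG and 120, 113 and 95.6 in media. All siEF libraries were below all controls, the control groups overlapped, and the log2 fold change was -1.26 (SE 0.080) against siNEG and -1.48 (SE 0.080) against media.

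Microfibrils form the scaffold on which elastin is laid down, and of their genes MFAP4, MFAP2, MFAP5 and FBN1 were called higher while FBN2 was not called. MFAP4 (chr17:19383442-19387190), which binds elastin and fibrillin, had 52.5, 52.4 and 57.5 CPM in siEF, 1.39, 1.12 and 1.03 in siNEG and 2.25, 1.97 and 0.943 in media (log2 fold change 5.52, SE 0.158, against siNEG). Its 3 siEF values stood close together and the spread in media was wider than in siNEG. MFAP4 shares 103 exonic bases with MAPK7 on the opposite strand, which had 4794 counts to its own 4471. MFAP2 (chr1:16974502-16980632), MAGP-1, the most abundant gene of this group per length in siEF, had 113, 122 and 118 CPM in siEF, 26.8, 25.9 and 24.6 in siNEG and 31.2, 27.6 and 25.4 in media (log2 fold change 2.19, SE 0.070). FBN1, fibrillin-1, the main microfibril protein, had 117 ± 3.46 CPM in siEF and 9.19 ± 2.10 in siNEG, which differed by 3.67 on the log2 scale (SE 0.110). FBN2, the fibrillin of the embryo, had 3.30 ± 0.238 and 2.64 ± 0.0478 CPM (log2 fold change 0.32, SE 0.185). The 2 fibrillin genes thus stood apart in both level and difference.

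The other called genes of this group were MFAP5 (log2 fold change 4.41), EFEMP1 (fibulin-3, 3.63), EFEMP2 (fibulin-4, 1.69), EMILIN1 (1.66) and FBLN5 (fibulin-5, 1.64). EFEMP2 and FBLN5 are needed for elastic fibre assembly, and ELN itself was lower. FBLN1, fibulin-1, a fibronectin binder, had 192 ± 7.01 CPM in siEF and 104 ± 3.84 in siNEG (log2 fold change 0.88, SE 0.057), and EMILIN2 had 30.0 ± 1.06 and 18.6 ± 1.23 CPM (0.69, SE 0.073). FBLN2 had 10, 11 and 2 counts in siEF and none in the 6 control libraries, at least 3.47-fold higher than siNEG when siNEG is set to the floor of 3 counts per library.

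All 8 small leucine-rich proteoglycans, which bind collagen fibrils and regulate their width, were tested and called higher, where 17.1% of all genes were, but LUM, OGN, ASPN and PODN could be tested only through their siEF counts and had to differ. The 8 genes differed in level, with 6 of them low in siEF. FMOD (chr1:203340628-203351758), fibromodulin, was the most abundant per length, with 156, 158 and 157 CPM in siEF, 57.2, 54.4 and 53.9 in siNEG and 66.2, 64.4 and 58.5 in media (log2 fold change 1.51, SE 0.053, against siNEG). BGN (chrX:153494980-153509546), biglycan, had 85.6, 81.9 and 86.2 CPM in siEF, 9.41, 9.96 and 8.50 in siNEG and 16.3, 13.1 and 11.9 in media (log2 fold change 3.18, SE 0.093). Media lay between siEF and siNEG for both genes.

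The other 6 had means between 1.21 and 2.65 CPM in siEF. PODN (chr1:53062052-53085501), podocan, had 78, 55 and 71 counts in siEF, none in siNEG and 0, 0 and 2 in media, which is at least 28.4-fold higher than siNEG at the floor of 3 counts per library. LUM (chr12:91102629-91111494), lumican, had 35, 20 and 43 counts in siEF, 0, 0 and 1 in siNEG and 0, 0 and 1 in media, a ratio of scaled counts of 123 against siNEG with an exact 95% interval of 21.5 to 4897. ASPN (chr9:92456205-92482506), asporin, had 75, 39 and 63 counts in siEF, 6, 0 and 0 in siNEG and 0, 1 and 3 in media (log2 fold change 5.10, SE 0.685, against siNEG). All its siNEG counts were in replicate 1, and with 1 library left out its log2 fold change ran from 4.50 to 9.03, the latter without that library, where the fitted value depends on the prior count. PODN, LUM, ASPN and OGN each had at most 6 counts in any control library and at least 20 in every siEF library, so their folds rest on few control reads. OGN (osteoglycin, log2 fold change 3.80), DCN (decorin, 2.62) and PRELP (2.51) completed the family.

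Several of these genes lie beside each other. LUM and DCN are neighbours on chromosome 12 with KERA and EPYC, which had no count in any library, and FMOD and PRELP lie on chromosome 1 with OPTC, which also had none. OGN and ASPN lie on chromosome 9 with OMD (osteomodulin) and ECM2. OMD had 49, 36 and 54 counts in siEF, none in siNEG and 0, 0 and 1 in media, at least 19.3-fold higher than siNEG at the same floor. ECM2 had 22, 8 and 15 counts in siEF, 5, 2 and 8 in siNEG and 16, 7 and 15 in media, so its siEF and media counts overlapped. It was called higher than siNEG (log2 fold change 1.85, SE 0.557), though testable only through siEF, and was not called against media. Neighbours in a cluster thus included genes with counts in every siEF library and genes with none.

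Hyaluronan-binding proteoglycans were scarce. VCAN (chr5:83471618-83582303), versican, a large chondroitin sulfate proteoglycan, had 5.78, 5.73 and 6.10 CPM in siEF, 3.41, 2.53 and 2.79 in siNEG and 2.87, 3.11 and 3.04 in media. Its log2 fold change was 1.01 (SE 0.152) against siNEG, just past the limit, and 0.97 (SE 0.153) against media, just short of it, so that it counts as called in one comparison and not in the other. It was not called against siNEG in DESeq2 or with no filter on low counts, and was called against media with upper quartile scaling and at a minimum of 10 counts in every library. HAPLN1, the link protein that fixes such proteoglycans to hyaluronan and lies beside VCAN on chromosome 5, had no count in siEF, 4, 3 and 1 in siNEG and 8, 5 and 2 in media. ACAN, aggrecan of cartilage, had 1 count in all 9 libraries.

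Of the 5 basement membrane genes, 4 were called higher than siNEG and AGRN was not, where 17.1% of all genes were called higher. NID1 (chr1:235975830-236065109), nidogen-1, which bridges laminin and collagen IV, had 298, 289 and 317 CPM in siEF. It had 42.3, 44.2 and 43.9 in siNEG and 33.2, 34.2 and 33.1 in media. NID2 (chr14:52004809-52069059), nidogen-2, had 130, 126 and 132 CPM in siEF, 13.3, 13.8 and 14.0 in siNEG and 9.70, 9.74 and 9.53 in media. For both nidogens the 3 groups were separate and ordered alike, siEF above siNEG above media, and siEF exceeded siNEG by 2.79 (SE 0.049) and 3.24 (SE 0.057) on the log2 scale. NID2 shares 1909 exonic bases with RTRAF on the opposite strand, an abundant gene with 26746 counts, and whether counting used the strand is not given in the sources used here.

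HSPG2, perlecan, the large heparan sulfate proteoglycan of basement membranes, had 170 ± 1.89 CPM in siEF and 40.3, 44.9 and 47.0 in the siNEG libraries (log2 fold change 1.95, SE 0.066). VWA1, which binds perlecan, had 5.96 ± 1.49 and 1.56 ± 0.125 CPM (1.92, SE 0.215). AGRN, agrin, which organises synapses at the nerve and muscle contact, was not called, at 183 ± 12.6 CPM in siEF and 127 ± 4.11 in siNEG (0.52, SE 0.054).

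MGP showed the largest fitted difference among members with counts in every library. MGP (chr12:14880864-14885857), matrix Gla protein, an inhibitor of mineralisation, had 348, 360.0 and 369 CPM in siEF, 0.600, 0.442 and 0.673 in siNEG and 0.327, 0.286 and 0.314 in media. As counts these were 9643, 7351 and 10769 against 19, 15 and 21 in siNEG and 10, 9 and 9 in media, so its control level rests on few reads. The fitted difference was 627-fold against siNEG (log2 fold change 9.29, SE 0.084), and 10.2 on the log2 scale against media. MATN2, matrilin-2, an adaptor of matrix filaments, was called higher (20.4 ± 1.14 CPM against 2.73 ± 0.615, log2 fold change 2.90), and ECM1 was not (40.4 ± 1.5 against 28.5 ± 0.825, 0.51).

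**Figure D3:**
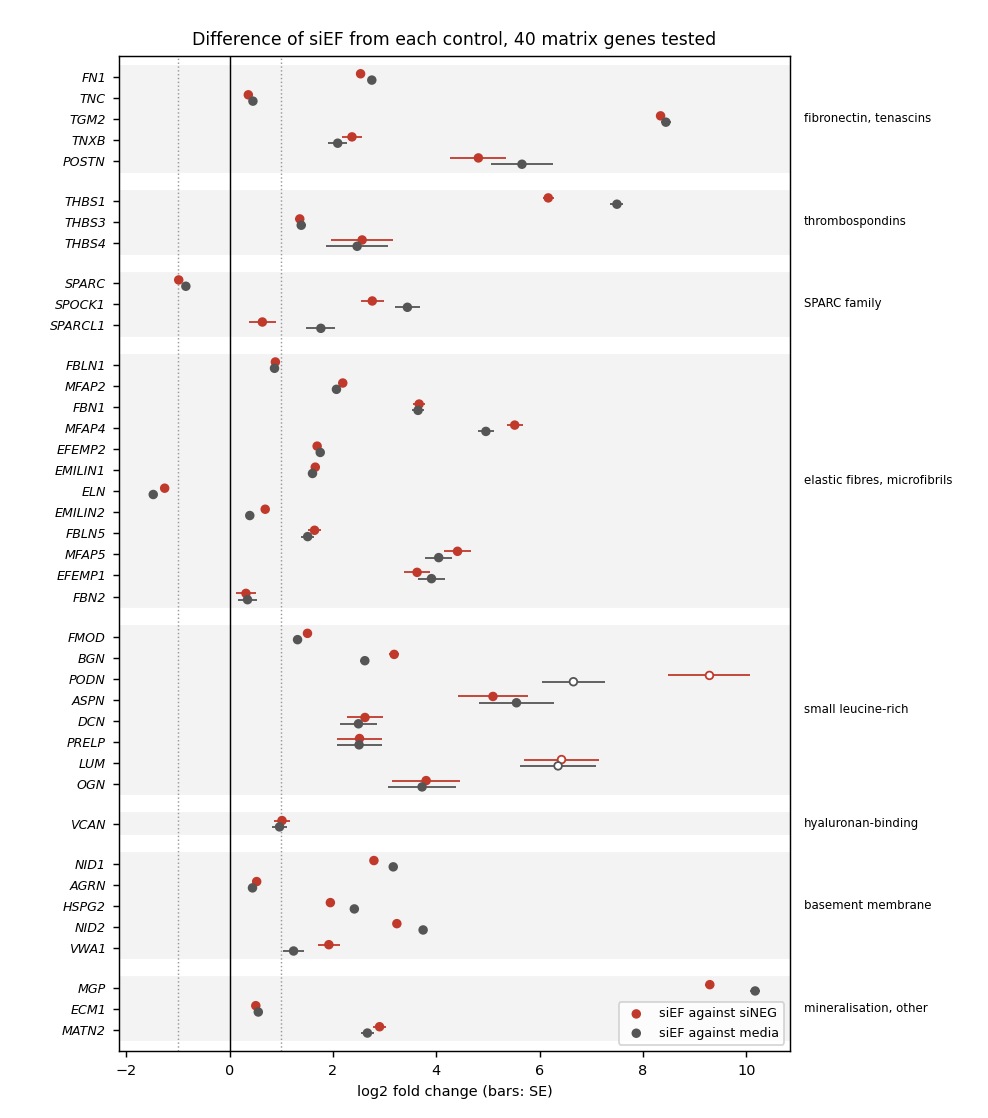
Points give how far siEF differed from siNEG (red) and from media (grey), as log2 fold changes, for the 40 matrix genes tested, with bars of 1 SE and dotted lines at the limits of a call. Open points, in both colours, are genes with 3 counts or fewer in every siNEG library, whose fitted value depends on the prior count. POSTN and ASPN are filled although they had 3 counts or fewer in every media library. ELN is the only gene left of the lower limit and SPARC touches it, while MGP, TGM2 and THBS1 lie beyond 6 among the filled points.

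Compared per length of the main transcript, the order of the genes differed between siEF and the controls. In siNEG the leading genes were FN1 (822 CPM per kb), SPARC (269), TNC (215), FBLN1 (35.8) and ELN (27.7), and media had the same genes in that order at 707, 244, 202, 36.2 and 32.3. In siEF they were FN1 (4758), TNC (276), MGP (218), SPARC (136) and MFAP2 (113), followed by TGM2 (75.1). MGP was 24th of 45 in siNEG and the third in siEF, and TGM2 went from 28th to the sixth place, whereas ELN went from the fifth to 19th. Neighbours in this order can lie close, as EFEMP2 and AGRN did in siEF at 25.0 and 25.0 CPM per kb.

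**Figure D4:**
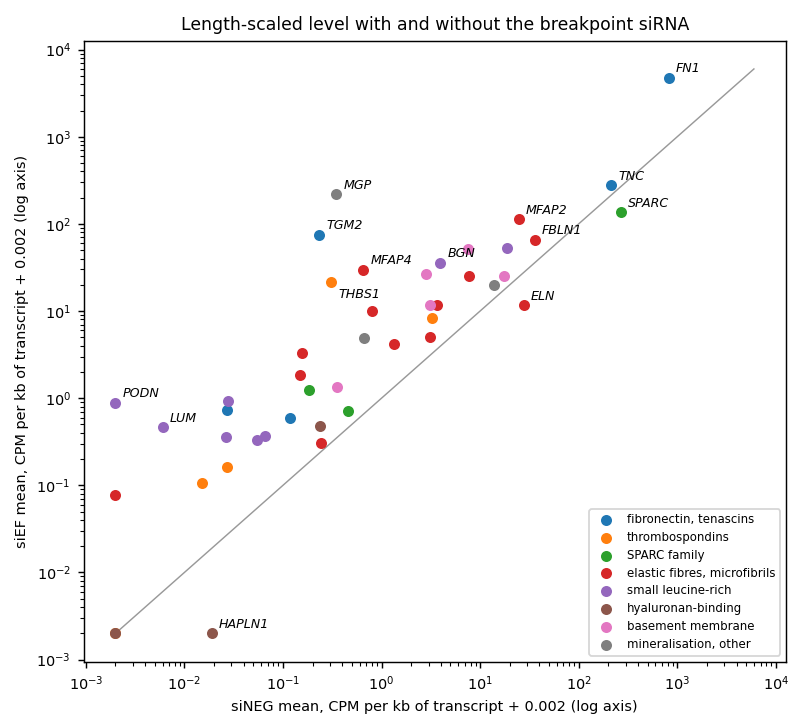
Each point is a matrix gene at its mean CPM per kb of transcript, plus 0.002, in siNEG (horizontal) and siEF (vertical), on log axes, coloured by role, with a line of equal level. Most genes lie above the line, MGP and TGM2 go from under 1 to 218 and 75.1 CPM per kb, and SPARC, ELN and HAPLN1 lie under it.

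The nonspecific siRNA was compared with media to see how far transfection itself changed these genes, the only comparison in which no siEF library enters the difference. THBS1 was the 1 member called, higher in siNEG by 1.33 on the log2 scale (SE 0.206, adjusted P = 0.000274 in edgeR), beside 0.162% of all genes called higher. No member was called lower, beside 0.267% of all genes, in edgeR or in DESeq2, which gave no adjusted P for 13 of the 45, while 15 of the 40 members tested (37.5%) had an unadjusted P under 0.05, 9 of them higher and 6 lower, beside 30.3% of all genes. The median log2 fold change was -0.02 over the members and -0.00121 over all genes.

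By adjusted P under 0.01 without the limit on size, 5 of the 40 members were higher in siNEG, where 3.83% of all genes were, and 2 were lower, where 5.96% were. Both nidogens and perlecan were among the higher ones. NID2 differed by 0.51 (SE 0.064, adjusted P = 4.1e-05), NID1 by 0.37 (SE 0.051, adjusted P = 7.5e-05), HSPG2 by 0.46 (SE 0.068, adjusted P = 0.000167) and FN1 by 0.22 (SE 0.040, adjusted P = 0.00117) on the log2 scale in edgeR's quasi-likelihood test. All 3 siNEG libraries lay above all 3 media libraries for each of these genes and for THBS1. Lower in siNEG were BGN (log2 fold change -0.57, SE 0.101, adjusted P = 0.000915) and EMILIN2 (log2 fold change -0.30, SE 0.074, adjusted P = 0.00981), each with no overlap between the groups.

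These differences were smaller than those of siEF for the same genes, for instance 0.22 against 2.53 for FN1 and 0.51 against 3.24 for NID2, and whether the pairs differ was not tested, since they share the siNEG libraries. SPARCL1 (1.13, SE 0.287, adjusted P = 0.0117) and MGP (0.87, SE 0.252, adjusted P = 0.0413) missed the threshold of edgeR's test. In the same edgeR test SPARC (0.14, SE 0.041, adjusted P = 0.0292) also missed it. So did FMOD (-0.19, SE 0.053, adjusted P = 0.0194) and VWA1 (-0.68, SE 0.224, adjusted P = 0.0457), both lower in siNEG. TGM2 differed by 0.10 with a 95% interval of -0.28 to 0.48, and ELN by -0.22 (adjusted P = 0.0533).

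**Figure D5:**
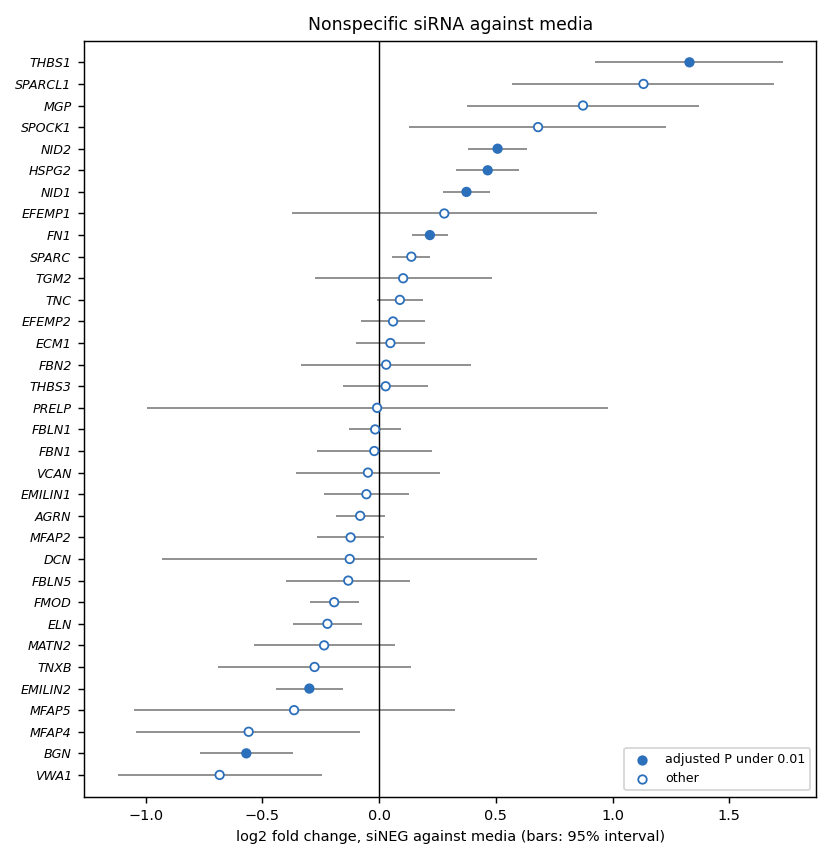
Points give the log2 fold change of siNEG against media for the 34 matrix genes that pass the filter on the control libraries alone, with 95% intervals and filled points where the adjusted P is under 0.01. THBS1 leads at 1.33, NID2, HSPG2, NID1 and FN1 lie above 0, and EMILIN2 and BGN lie under it.

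Other genes of the matrix were read from a list of 107 further glycoproteins and proteoglycans, of which 62 were tested and 17 had no count in any library. Against siNEG 31 were called higher and 2 lower, beside 17.1% and 11.7% of all genes, with a median log2 fold change of 1.15. However, 14 of the 31 could be tested only through their siEF counts and had to differ. Of the 46 that would have passed on the control libraries alone, 17 were higher and 2 lower, with a median of 0.65, where 13.7% and 12.5% of all such genes were. OMD, CRISPLD2 (log2 fold change 7.68, SE 0.239), HMCN2 (5.14, SE 0.593) and CILP of cartilage are among those 14. CILP had 1, 1 and 0 counts in siNEG, and the ratio of its scaled counts was 207 with an exact 95% interval of 56.8 to 1714. The 2 lower genes were FREM2 of the epidermal basement membrane (-1.65, SE 0.106) and TNFAIP6, a hyaluronan-binding protein (-1.59, SE 0.094). Of 45 enzymes that build or edit chondroitin and heparan sulfate chains, 36 were tested, 8 were higher and 5 lower than siNEG, with a median log2 fold change of 0.175, beside the same shares of all genes tested, and 2 of the 8 could be tested only through siEF, HS3ST3B1 and EXTL1. Against media 6 were higher and 6 lower, with a median of -0.0273, beside 17.4% and 12.5% of all genes. SULF2, which removes sulfate groups from heparan sulfate, stood at 82.3 ± 6.62 CPM in siEF and 1.34 ± 0.188 in siNEG (5.94), beside HS3ST3B1 (5.93), EXTL1 (5.69) and CHST11 (2.25). Lower were HS6ST3 (-3.90), HS3ST4 (-2.44), DSEL (-2.07) and NDST4 (-1.55).

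Markers of cell types moved with these groups, and their calls stand beside 17.1% of all genes called higher and 11.7% called lower than siNEG. Of 10 Ewing sarcoma markers 8 were called lower in siEF than in siNEG, while CD99 and XG were not called, and their summed level was 325 to 326 CPM in siEF, 657 to 686 in siNEG and 866 to 915 in media. Of 8 fibroblast markers 6 were tested and 5 called higher, 1 of them testable only through siEF, with sums of 6246 to 6493 CPM in siEF, 683 to 707 in siNEG and 708 to 742 in media. Most of that was COL3A1 at 5830 ± 113 CPM in siEF, while COL1A2, a defining fibroblast gene, had 9, 1 and 7 counts in siEF and none in the controls. Epithelial markers summed to 608 to 657 CPM in siEF and 103 to 135 in the controls, mostly KRT18, and 5 of 6 tested were called higher, 3 of them testable only through siEF. Endothelial markers summed to 14.2 to 17.0 CPM in siEF and at most 8.53 in the controls, with 3 of 6 tested called higher, 2 of them testable only through siEF, and 1 lower. Immune markers summed to 6.42 to 8.82 CPM in siEF and at most 3.63 in the controls, with 1 of 2 tested called higher and CD3E and MS4A1 at 0 in every library. The part of these marker differences in the matrix values was not tested.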

How the data were processed

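The deposited table holds the authors' expected counts per gene for 9 libraries of poly(A) RNA. According to the methods, the authors aligned reads to hg38 with STAR and quantified expression with RSEM. The deposited columns are 1 per library and sum to different totals. The submitters' processing notes also list cutadapt 2.10, FastQC and DESeq2 1.32.0, and the labels name a small RNA library kit. The strand setting and the annotation release are not given in the sources used here.

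Counts were rounded, filtered with filterByExpr (16093 of 60603 genes kept), scaled by TMM and fitted with edgeR 4.0.16 (quasi-likelihood, R 4.3.3) over all 9 libraries with 1 mean per group. Benjamini-Hochberg adjustment ran over all genes tested. Calls required a log2 fold change beyond 1 with an adjusted P under 0.01, the limits the methods give for DESeq2, which was an alternative here (version 1.42.0). The edgeR procedure was tested on simulated data, but no value from that test is given here. Groups and replicate numbers came from the labels, and no library was left out. Pairs of libraries within a group differed by more than sampling noise (chi-square per degree of freedom 3.57 to 23.2). This cannot show separate cultures, since libraries made from a single culture could also differ by more than that noise. Each library was counted as a replicate because its label names it so.

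Folds against a group with no count were computed against 3 counts per library. Ratios against 1 to 3 counts have exact 95% intervals that cover counting error only. Levels per kb use MANE Select transcript lengths (GENCODE release 44), with the Ensembl canonical transcript for 1 gene. Upstream sequences came from RefSeq (GRCh38.p14).

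The members and all lists were chosen with earlier results of these data known. Values by library were given for the 8 members with the largest rise, those with a fall, the leading member of each role group per length, MGP, PODN and FN1, and members differing by more than 0.5 (log2) between siNEG and media at an adjusted P under 0.01. Values of other members named were chosen after being seen. From other lists at most 4 called genes in each direction with at least 1 CPM were named. The alternatives were RLE and upper quartile scaling, no filter, at least 10 counts in every library, DESeq2, the 6 libraries compared alone, the replicate number as a block, adjusted P alone and each library left out.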

Additional observations from a re-analysis of the deposited data

How the results depend on the processing

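Calls lower than siNEG became 2, with SPARC beside ELN, with no filter on low counts, in DESeq2 and by adjusted P alone, and ranged from 1 to 2 with 1 library left out (2 without siEF replicate 3 or siNEG replicate 1). Lower than media, 2 were called with no filter (HAPLN1 added) and by adjusted P alone (SPARC added). Calls higher in siNEG than in media became 2 with no filter and at a minimum of 10 counts in every library (SPARCL1 added), and by adjusted P alone 5 were higher and 2 lower. The median log2 fold change against siNEG was 2.61 with upper quartile scaling and 1.83 at the minimum of 10 counts, where fewer members were tested (30), and 2.39 to 2.54 with 1 library left out. Against media it was 2.58, 1.80 and, with no filter, 2.41. Between siNEG and media the median ranged from -0.0486 to 0.0583 with 1 library left out. Except where noted, the cause was not tested.

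The calls higher in siEF numbered 30 to 32 against either control with 1 library left out, where THBS4 and VCAN were lost or FBLN2 gained. In DESeq2 and with no filter the count against siNEG stayed at 31 with FBLN2 in place of VCAN. At the minimum of 10 counts 21 of the 31 remained against siNEG, and MGP was among the 10 no longer tested. No fold change of a named member that had been called changed sign. Between siNEG and media, the adjusted P of MFAP4, ELN and FMOD fell under 0.01 only without media replicate 3 among the libraries left out, with log2 fold changes of -0.84, -0.31 and -0.24, and that of SPARC (0.14) and FMOD (-0.19) in DESeq2. With a replicate block, 31 members were called higher and 1 lower against either control and no call of a member changed. The replicate numbers do not pair the samples, since correlations of same-numbered libraries lay between -0.0875 and 0.0482 and 1 of 9 libraries correlated best with its own number. Leaving FN1 out of the totals and the scaling, an alternative chosen after seeing the data, changed no call of a member.

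Libraries of this depth leave 3 counts or fewer for ACAN, COMP, FBLN2, LUM and PODN in every control library, so their control levels cannot be told from 0. A small number of control reads also limits the folds of ASPN, OGN, POSTN, THBS4 and MGP.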
